A study of Rattus norvegicus with 24 samples.

Results

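ATF4 and 9 genes that act with it or downstream of it (Ddit3, Trib3, Chac1, Cebpb, Cebpg, Asns, Sesn2, Ddit4 and Nupr1) were followed through dehydration in the rat supraoptic nucleus. The 10 genes were taken as named, with earlier results of these data known, so counts of them describe the group and do not test it. Every probe set whose only gene symbol in the platform annotation was one of them was used. These were 14 of the 31099 probe sets on the array, for 10 of the 14218 genes with a probe set of a single symbol. RNA of 5 Sprague Dawley rats was pooled for each Affymetrix array. The female set had 4 arrays of euhydrated controls and 5 arrays of females without water for 72 hours, with food freely available. The male set had 5 arrays of controls and 5 arrays of males dehydrated for 3 days, all aged 10 to 12 weeks, while the labels used here give no age for the females. Female RNA was extracted with Trizol and labelled by the Affymetrix procedure, and male RNA was extracted with QIAzol and amplified with an Ambion kit. Sex, extraction, labelling and software change together between the sets and cannot be told apart, so each dehydrated group was compared with the controls of its own set. The study's design text lets the pools of a group count as biological and technical replicates alike, so p-values measure only the spread between these arrays. The 5 arrays of lactating females were not analysed here.

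When the kinases of the integrated stress response phosphorylate the initiation factor eIF2, most protein synthesis slows while the messenger RNA of Atf4 is translated more. The ATF4 protein is a bZIP transcription factor that pairs with C/EBP proteins and switches on genes for amino acid supply, for charging of transfer RNA, and for stress effectors such as the transcription factor CHOP, the product of Ddit3. Magnocellular neurons of the supraoptic nucleus make vasopressin and oxytocin in large amounts and raise that synthesis when the animal lacks water. ATF4 protein and eIF2 phosphorylation were not measured here, only messenger RNA.

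The labelled tissue was checked first. Avp and Oxt, which encode vasopressin and oxytocin, had signals of 3644 to 7666 and of 3001 to 6698 on 18 arrays. On the remaining array, replicate 5 of the dehydrated females, they were 50.6 and 26.0, so its RNA goes against its label. The rule that chose the genes leaves this array out. It also stands out on the members: Atf4 (357), Chac1 (102), Asns (70.6), Ddit3 (84.7) and Cebpb (8.28) were below every female control on it, and Ddit4 (232), Sesn2 (121) and Trib3 (41.6) were above every other female array. With it kept, none of the 10 members passed the test in females, and Atf4 had a log2 fold change of 0.69 ± 0.41 (SE, adjusted p = 0.704), while 1 probe set on the whole array passed. All values below are from the other 18 arrays unless it is named. The authors had scaled the arrays to trimmed means near 100, and array medians were 36.1 to 46.5. Signals are not compared between probe sets, since probes differ in brightness.

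All 10 members matched the RefSeq promoter table (assembly GRCr8), and the 250 bases before each annotated start were searched on both strands. The motif TGATGNAA, a short form of the composite site bound by an ATF4 and C/EBP pair, was present in 3 of the 10 promoters, against 3.4% of 33469 promoters of the same length. The cyclic AMP response element TGACGTCA was in none of the 10 (1.59% of all promoters), and neither was the endoplasmic reticulum stress element (0.0657% of all promoters). Only exact matches to the letters of each motif were counted, and variant forms of these elements were not searched for. The lack of a match therefore does not show that a promoter, that of Ddit3 included, lacks the element. A match describes only the letters in this window and says nothing of binding. The 3 promoters with the composite motif are shown because they belong to members that behaved differently on the arrays: Chac1 rose in both sets, Trib3 was near the lower end of the signals, and Nupr1 was lower in dehydrated males. The motif is read on the opposite strand in each, so its reverse complement is in capitals. They lie at chr3:161275534-161275783 on the minus strand (Trib3), chr3:126795881-126796130 on the plus strand (Chac1) and chr1:190645902-190646151 on the minus strand (Nupr1), and are written 5′ to 3′ on the strand of the gene.
Trib3: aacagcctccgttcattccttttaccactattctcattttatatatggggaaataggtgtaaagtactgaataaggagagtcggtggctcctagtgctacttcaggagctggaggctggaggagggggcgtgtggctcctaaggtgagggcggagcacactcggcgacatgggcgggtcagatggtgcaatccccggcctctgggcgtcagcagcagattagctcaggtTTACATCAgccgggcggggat
Chac1: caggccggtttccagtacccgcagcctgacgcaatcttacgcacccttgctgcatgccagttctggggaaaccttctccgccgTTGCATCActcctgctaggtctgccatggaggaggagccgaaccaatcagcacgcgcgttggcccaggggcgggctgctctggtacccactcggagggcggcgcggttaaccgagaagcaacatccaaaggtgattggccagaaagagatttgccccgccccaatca
Nupr1: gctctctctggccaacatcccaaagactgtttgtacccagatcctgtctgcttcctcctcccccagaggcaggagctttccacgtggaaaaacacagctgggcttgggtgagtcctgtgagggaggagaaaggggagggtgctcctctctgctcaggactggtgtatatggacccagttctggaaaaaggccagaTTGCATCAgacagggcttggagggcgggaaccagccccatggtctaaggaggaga
The capitals end 14 bases before the start of Trib3, 160 bases before that of Chac1 and 48 bases before that of Nupr1. Chac1 and Nupr1 carry the same 8 bases, TTGCATCA, and Trib3 carries TTACATCA.

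In dehydrated females 4 of the 10 members rose and none fell, and in dehydrated males 6 rose and 1 fell. Atf4, Chac1, Asns and Ddit3 rose in both sets, and Cebpb and Cebpg passed the test in males only. Nupr1 was the member that fell, in males. At an unadjusted limma p under 0.05, 7 members were higher in females, with Cebpb, Cebpg and Trib3 added, and 0 were lower. In males 7 were higher, with Trib3 added, and 1 was lower. Of the 21729 probe sets tested, 4115 in females and 6818 in males were under that unadjusted p, in either direction. Sesn2, Ddit4 and Trib3 passed the test in neither set. A probe set passed at a limma p-value under 0.05 after Benjamini-Hochberg adjustment over the 21729 probe sets tested. Over all of these, 1.77% rose and 1.19% fell in females, and 8.33% rose and 9.37% fell in males. Members, like the list genes below, are counted once each by their brightest tested probe set, while these shares count every tested probe set. The median log2 fold change of the members was 0.54 in females and 0.61 in males, and that of all genes tested was -0.03 (11524 genes) and -0.02 (11533 genes). In both sets 8 of the 10 members had a fold above 1. These are fold changes of log2 values with a small constant added, so they understate the change of dim probe sets. In whole tissue, fewer cells of a type and less RNA per cell cannot be told apart.

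The balance of rises and falls over the whole array depended on the scaling. In females 384 probe sets rose and 258 fell, against 348 and 114 after the arrays' medians were set equal. In males the counts were 1809 and 2035, against 2711 and 1091. Under that centring 4 members rose in females and 7 in males, with Trib3 added (log2 fold change 0.65, adjusted p = 0.0357), and Nupr1 still fell in males.

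Atf4 is the transcription factor at the head of the group (probe set 1367624_at). Its signals were 804, 439.9, 731 and 801 in control females and 1537, 1533, 1346 and 1362 in dehydrated females. In males they were 676, 736, 755, 694 and 797 in controls and 1464, 1529.7, 1563, 1654 and 1578 in dehydrated animals. Every dehydrated array of a set was above every control of that set, and control replicate 2 was the lowest female array. The rise was 2.13-fold in females (log2 fold change 1.09 ± 0.18, SE, 4 against 4 arrays, adjusted p = 0.00867) and 2.12-fold in males (1.09 ± 0.05, 5 against 5 arrays, adjusted p = 1.8e-08). Without control female replicate 2 the female value was 0.88 ± 0.11 and the call was kept. The difference between the effects, female minus male, was 0.00 ± 0.18, with a 95% interval of -0.37 to 0.37.

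Ddit3 encodes CHOP, a C/EBP relative that pairs with other bZIP proteins and is known for its part in cell death under lasting stress. Its signals (1369590_a_at) were 204, 165, 188 and 152 in control females and 290.5, 365, 213 and 309.8 in dehydrated females. Male controls gave 140.1, 149, 158, 159.8 and 168, and dehydrated males gave 244, 248, 231, 261 and 244. The groups did not overlap in either set, although dehydrated female replicate 3 lay just above the highest control. Ddit3 rose 1.62-fold in females (0.70 ± 0.16, adjusted p = 0.0400) and 1.56-fold in males (0.64 ± 0.07, adjusted p = 2.52e-05). The female call was narrow: it was lost when any single female array other than control replicate 2 or dehydrated replicate 3 was left out (adjusted p up to 0.116).

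Cebpb and Cebpg encode C/EBP proteins that can pair with ATF4. Cebpb signals (1387087_at) were 43.7, 64.1, 63.3 and 59.2 in control females and 93.0, 74.9, 71.8 and 94.9 in dehydrated females. Male controls had 79.1, 65.0, 65.4, 51.7 and 60.1, and dehydrated males had 172, 134, 185, 138 and 152. Both sets were without overlap, and the gap was wider in males. Cebpb rose 2.30-fold in males (1.203 ± 0.115, adjusted p = 8.97e-06). In females the log2 fold change was 0.50 ± 0.16 (adjusted p = 0.113), which passed with array weights (0.59, adjusted p = 0.0320) and with the spread shared over all 4 groups (adjusted p = 0.0289). The difference between the effects was -0.70 ± 0.19 (95% interval -1.10 to -0.31) and did not pass over all probe sets (adjusted p = 0.171).

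Cebpg was measured by 2 probe sets, of which only the brighter passed the test in males. The brighter, 1372885_at, gave 147, 210.4, 168 and 198 in control females and 221, 263, 259 and 245 in dehydrated females. It gave 229.9, 226, 169.7, 239 and 217 in male controls and 266, 297, 291, 270.3 and 255 in dehydrated males. The groups were separate in both sets, by a small margin. The log2 fold change was 0.45 ± 0.13 in females (adjusted p = 0.0838, but 0.0409 without control female replicate 2, 0.0292 with array weights and 0.0145 with the spread shared over all 4 groups) and 0.35 ± 0.09 in males, where it passed (adjusted p = 0.0130). The dimmer set, 1371038_at, gave 0.45 ± 0.18 in females (adjusted p = 0.200) and 0.11 ± 0.16 in males (adjusted p = 0.687). With the mean of both probe sets the male rise no longer passed (0.23, adjusted p = 0.134).

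**Figure D1:**
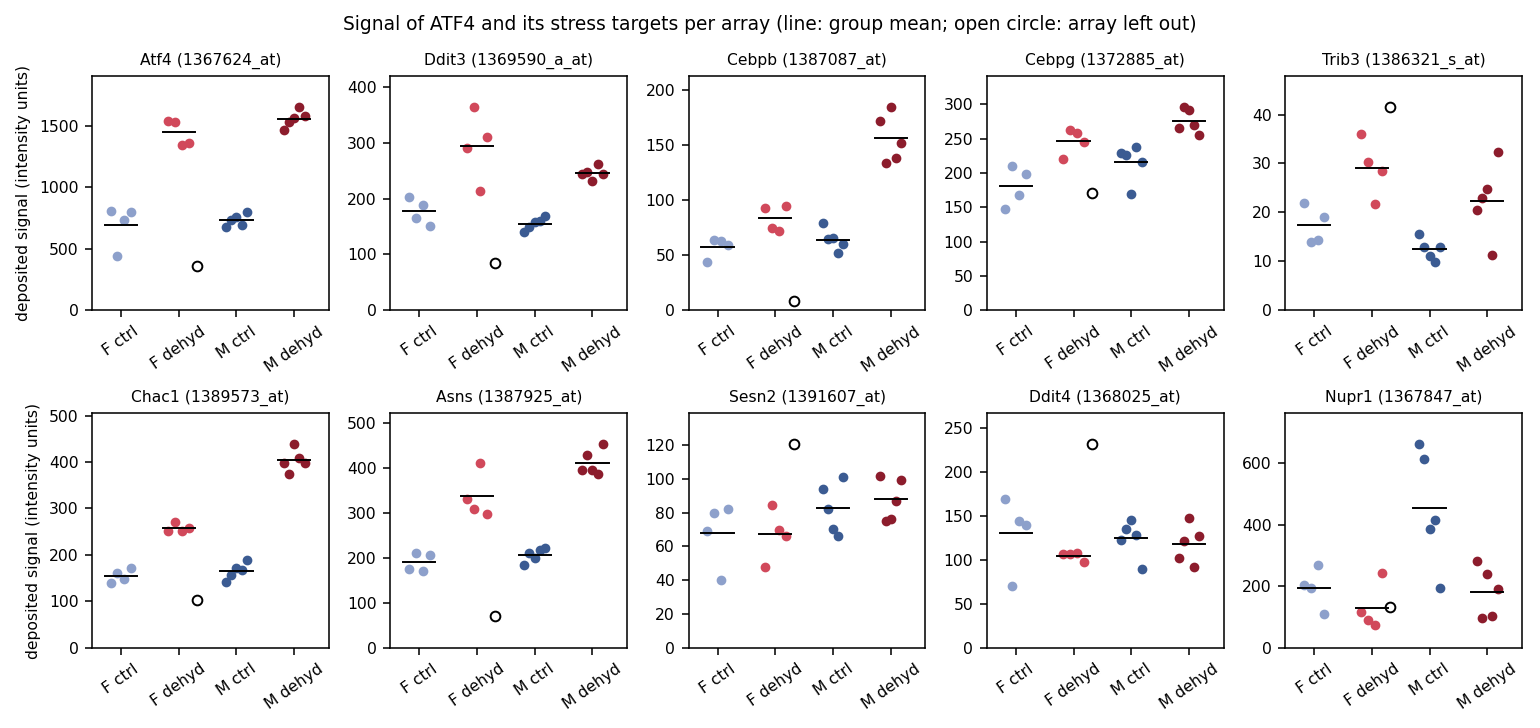
Signal of each of the 10 members on every array, by group, as deposited (linear scale, arbitrary units, zero at the base of each panel), with 1 panel per gene and the probe set with the highest mean. Filled points are arrays, lines are group means, and the open circle is dehydrated female replicate 5, which was left out. Atf4, Chac1, Asns, Ddit3, Cebpb and Cebpg show dehydrated arrays above all controls of their set, with Atf4 at 1346 to 1654 in the dehydrated groups and 439.9 to 804 in the controls.

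Among the effectors, Chac1 and Asns rose in both sets. Chac1 encodes an enzyme that breaks down glutathione. Its signals (1389573_at) were 139, 160.4, 148 and 171 in control females and 250.3, 272, 251 and 258 in dehydrated females. In males they were 143, 156, 171, 168 and 189.7 in controls and 398, 375, 439, 409 and 397 in dehydrated animals. Neither set had any overlap between its groups. The rise was 1.65-fold in females (0.72 ± 0.10, adjusted p = 0.00481) and 2.39-fold in males (1.26 ± 0.08, adjusted p = 1.09e-07). Of the members, Chac1 came nearest to a difference between the sets: -0.54 ± 0.12, female minus male, with a 95% interval of -0.79 to -0.29 and an adjusted p of 0.0932. The adjusted p was 0.0493 with array weights, and 0.0657 to 0.171 when single arrays were left out.

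Asns encodes asparagine synthetase, which makes asparagine from aspartate and glutamine. Signals (1387925_at) were 174, 210.2, 172 and 206 in control females and 331, 309, 409.8 and 297 in dehydrated females. Male controls were at 183, 211, 199.9, 217 and 222, and dehydrated males at 394, 427, 394, 385 and 452. No dehydrated array came near the controls in either set. Asns rose 1.74-fold in females (0.80 ± 0.13, adjusted p = 0.00819) and 1.96-fold in males (0.97 ± 0.07, adjusted p = 6.68e-07). The difference between the effects was -0.17 ± 0.14 (95% interval -0.46 to 0.11, adjusted p = 0.747).

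Counted by arrays alone, 6 of the 10 members had every dehydrated array above every control in females, and 6 of 10 in males: Atf4, Ddit3, Chac1, Cebpb, Cebpg and Asns in both. Over all probe sets tested, this held for 5.31% in females and 6.82% in males. No member had every dehydrated array below every control, against 7.03% and 5.84% of all probe sets.

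Trib3 encodes a pseudokinase that binds ATF4 and CHOP and dampens their activity. It has 3 probe sets here, all dim, and only 1386321_s_at passed the filter on low values, at the 3.79th percentile of the probe sets tested in females and the 1.58th in males. That set gave 22.0, 13.9, 14.3 and 19.2 in control females and 36.0, 30.4, 21.7 and 28.4 in dehydrated females. It gave 15.6, 13.0, 11.1, 9.90 and 12.9 in male controls and 20.5, 22.9, 24.7, 11.4 and 32.3 in dehydrated males. A single dehydrated array overlapped the controls in each set. The log2 fold changes were 0.58 ± 0.23 in females (adjusted p = 0.189) and 0.57 ± 0.20 in males (adjusted p = 0.0642), neither past the threshold. Of the probe sets below the filter, 1370694_at read 1.0 to 6.0 in male controls and 9.40 to 19.6 in dehydrated males. Fitted with no filter, that was a log2 fold change of 1.19 ± 0.19 (adjusted p = 0.00148), from signals too low to be tested otherwise. In females the same probe set read 5.72 to 10.6 in controls and 2.10 to 15.6 in dehydrated animals, and its log2 fold change was 0.25 ± 0.31 (adjusted p = 0.743). The other, 1370695_s_at, overlapped between the groups of both sets, and fitted with no filter it gave 0.36 ± 0.26 in females (adjusted p = 0.547) and 0.73 ± 0.31 in males (adjusted p = 0.162). In males it read 14.8, 21.5 and 11.3 on 3 dehydrated arrays but 2.5 and 1.7 on the other 2, against 1.0 to 5.0 in controls.

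Sesn2 and Ddit4 encode brakes on the growth kinase complex mTORC1, sestrin 2 and REDD1. The brighter Sesn2 probe set, 1391607_at, lay between 40.4 and 82.3 in control females and between 48.1 and 84.4 in dehydrated females, and between 66.0 and 101 and between 75.3 and 102 in males. The groups overlapped almost fully. Its log2 fold change had a 95% interval of -0.47 to 0.49 in females and -0.18 to 0.36 in males, so a change of the size seen for Atf4 lay outside both. The dimmer set, 1396901_at, gave -0.03 ± 0.20 in females and -0.55 ± 0.28 in males (adjusted p = 0.190), where 1 dehydrated array read 3.20 and the other 4 read 16.9 to 26.6.

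Ddit4 (1368025_at) gave 169, 70.0, 144 and 139 in control females and 107, 107, 107 and 98.2 in dehydrated females. In males it ran from 90.1 to 146 in controls and from 91.7 to 148 in dehydrated animals. Of the 4 female controls, 3 were above all dehydrated females and control replicate 2 was below them, while the male groups overlapped. The log2 fold change was -0.23 ± 0.21 in females (adjusted p = 0.596) and -0.07 ± 0.14 in males (adjusted p = 0.754). Without control female replicate 2, the array that was also lowest for Atf4, the female value was -0.49 ± 0.12 and passed (adjusted p = 0.0419).

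Nupr1 encodes a small chromatin-associated protein that is induced in many cells under stress. Its signals (1367847_at) were 206, 195, 268 and 111 in control females and 117, 89.7, 73.4 and 242 in dehydrated females. Male controls read 662, 613, 387, 414 and 193, and dehydrated males read 283, 97.7, 239.8, 102 and 190.2. The groups overlapped in both sets, and the control males alone spread from 193 to 662 (454 ± 189, SD, n = 5). Nupr1 fell in males, to 0.410 of the control level (log2 fold change -1.29 ± 0.32, adjusted p = 0.0130). In females the log2 fold change was -0.64 ± 0.33 (adjusted p = 0.316), and the difference between the effects was 0.65 ± 0.52 (95% interval -0.43 to 1.72, adjusted p = 0.749).

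**Figure D2:**
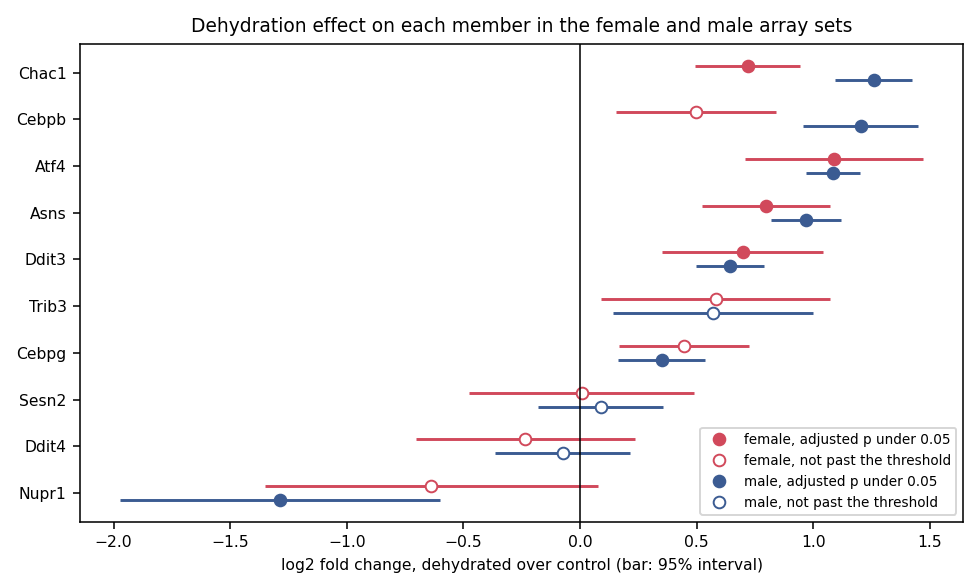
Log2 fold change, dehydrated over control, of the 10 members (the probe set with the highest mean of each), with bars for the 95% interval, in females (4 against 4 arrays) and males (5 against 5 arrays). Filled points passed the adjusted threshold of 0.05. Atf4 sits at 1.09 in both sets, Chac1 and Cebpb sit further right in males (1.26 and 1.203) than in females (0.72 and 0.50), and Nupr1 is at -1.29 in males and -0.64 in females.

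Markers of meninges and fibroblasts fell with Nupr1 in males. They are collagens and other genes of the membranes that cover the ventral surface of the brain next to this nucleus. Of the 12 markers, 10 fell in males (median log2 fold change -1.03) and 4 fell in females (-0.52). None was at 0. The summed signal of the 12 was 4009 to 9095 in control males and 2337 to 5364 in dehydrated males, and 3256 to 4356 in control females and 2061 to 2784 in dehydrated females. In females the dehydrated arrays shared the order, from replicate 3 (Nupr1 73.4, sum 2061) to replicate 4 (242 and 2784). Yet dehydrated replicate 4 was above control replicates 1, 2 and 4 for Nupr1 and below every control for the markers. Female control replicate 4 had the lowest Nupr1 signal of its group (111) with a sum of 3865, while control replicate 2 had the lowest sum (3256). In males the array order was shared apart from swaps between neighbouring arrays. Control replicate 5 had the lowest Nupr1 signal (193) and the lowest marker sum (4009) of the controls. On both it lay between dehydrated replicate 5 (190.2 and 3909) and dehydrated replicate 3 (239.8 and 4568). Dehydrated replicates 2 and 4 had the lowest of both among the dehydrated males (97.7 and 102 against sums of 2448 and 2337). Male control replicate 5 also had the lowest sum of the controls for astrocyte, microglia, mural cell and endothelium markers (18062, 1227, 792.5 and 1528). It did not for magnocellular, oligodendrocyte, choroid plexus and ependyma, or blood markers. Male dehydrated replicates 2 and 4 were also lowest in the astrocyte sum (15781 and 16135). So these lowest places were not particular to the meninges markers, the only list fitted as a covariate.

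With the mean log2 level of the markers as a covariate, the male log2 fold change of Nupr1 was 0.04 ± 0.13 (adjusted p = 0.905) in place of -1.29 ± 0.32. In the same fit 5 of the 6 male rises were kept: Atf4 at 0.99 ± 0.07, Chac1 at 1.18 ± 0.11, Asns at 0.90 ± 0.10, Cebpb at 1.47 ± 0.15 and Ddit3 at 0.52 ± 0.09. Cebpg had 0.32 and an adjusted p of 0.195. These male values rest on a narrow overlap: the marker mean was 11.04 to 11.41 on 4 of the 5 controls and 9.58 to 10.66 on the dehydrated arrays, and control replicate 5 (10.30) was the single control among them. In females the marker mean did not overlap between control (10.06 to 10.49 on the log2 scale) and dehydrated arrays (9.55 to 9.92), so marker level and dehydration cannot be told apart there at all. That fit left 6 probe sets called on the whole array and none of the members, with Atf4 at 1.70 ± 0.33 (adjusted p = 0.183).

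**Figure D3:**
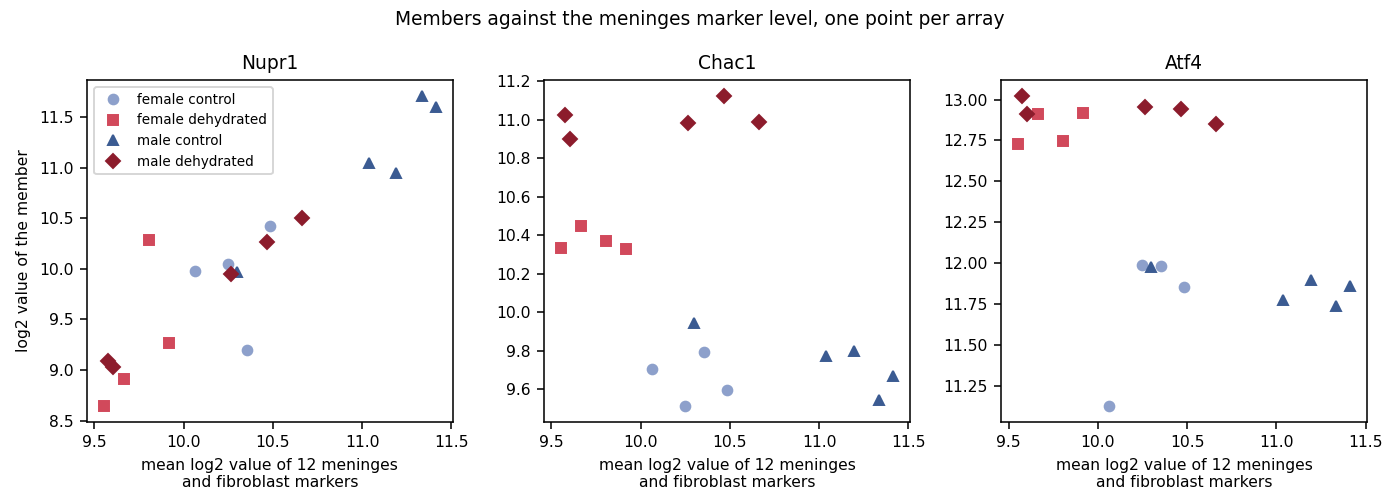
Log2 level of Nupr1, Chac1 and Atf4 on each of the 18 arrays against the mean log2 level of the 12 meninges and fibroblast markers on the same array, with the 4 groups marked. In males, whose marker means span 9.58 to 11.4, the arrays lowest in the markers are also the lowest for Nupr1, while for Atf4 and Chac1 every dehydrated array lies above every control. The male groups share only the part of the span from 10.30 to 10.66, with control replicate 5 as the single control there.

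Some markers of other cell types also passed the test. Over all probe sets tested, 1.77% rose and 1.19% fell in females, and 8.33% rose and 9.37% fell in males. Magnocellular markers rose in 2 of 6 tested genes in each set. The summed signal of all 8, tested or not, was 9489 to 10962 in control and 11434 to 19251 in dehydrated females. In males it was 11232 to 13507 and 12779 to 15491. Avp and Oxt are part of that sum and passed in neither set (adjusted p = 0.379 and 0.283 in females, 0.562 and 0.915 in males). Astrocyte markers fell in 1 of 10 genes in females and 3 of 10 in males. Oligodendrocyte markers fell in 4 of 10 genes in females and in none in males. Microglia markers fell in 4 of 10 tested genes in males, and blood markers in 3 of 4 in males and 1 of 4 in females. Mural cell markers fell in 3 of 8 genes and rose in 1 in males, and choroid plexus and ependyma markers fell in 2 of 4 in males, while in females no marker of either list passed. No endothelium marker passed in either set. The part of these in the changes of the members was not tested.

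Upstream of ATF4 lie the stress-sensing kinases and the genes that control eIF2. Of 15 such genes, 1 rose in females and 3 in males, and none fell. The 4 eIF2 kinases (Eif2ak1, Eif2ak2, Eif2ak3 and Eif2ak4) did not pass in either set, with log2 fold changes between -0.18 and 0.03. Ppp1r15a, whose product GADD34 brings a phosphatase back to eIF2 and is itself an ATF4 target, rose in males (0.63 ± 0.10, adjusted p = 0.000792) and had 0.66 ± 0.17 in females (adjusted p = 0.0550). Dnajc3, an endoplasmic reticulum chaperone once described as an inhibitor of these kinases, rose in both (0.63 ± 0.11 and 0.34 ± 0.07). Eif2b3, a subunit of the exchange factor for eIF2, rose in males (0.32 ± 0.10, adjusted p = 0.0333), but the call was lost without any of dehydrated replicates 2 and 4 and control replicates 2 and 4 (adjusted p up to 0.0875).

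Of 17 other bZIP genes on the array, Atf2, Atf3, Fosl2 and Jdp2 were below the filter on low values and were not tested. Of the 13 tested, 1 rose in females, and 3 rose and 1 fell in males. Crem, a cyclic AMP responsive factor, rose in both (0.72 ± 0.12 and 0.83 ± 0.11). Atf5, the nearest relative of Atf4, rose in males (0.53 ± 0.09, adjusted p = 0.00125) and had 0.45 ± 0.19 in females (adjusted p = 0.229). Nfil3 rose in males (0.50 ± 0.13), and Nfe2l2, the antioxidant factor NRF2, fell in males (-0.40 ± 0.11, adjusted p = 0.0183, but 0.0504 with array medians set equal). Of 11 paralogues, Asnsd1 rose in both sets (0.51 ± 0.11 and 0.50 ± 0.08). Its female call (adjusted p = 0.0355) was lost with array medians set equal (0.0543), and without any single female array other than control replicate 2 or dehydrated replicate 3 (up to 0.110). Sesn1, a relative of Sesn2, fell in males (-0.53 ± 0.08, adjusted p = 0.000466) and had -0.62 ± 0.15 in females (adjusted p = 0.0531). Cebpa, Cebpd, Trib1 and Trib2 passed in neither set.

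Other genes known as targets of ATF4 include those that charge transfer RNA. Of 19 aminoacyl-tRNA synthetases, which load amino acids onto transfer RNA, 7 rose in females and 15 in males, and none fell. The 7 that rose in females (Aars1, Cars1, Eprs1, Gars1, Rars1, Sars1 and Tars1) also rose in males. The median log2 fold change was 0.37 in females and 0.44 in males. Cars1 rose by 0.85 ± 0.11 in females and 0.67 ± 0.08 in males, Gars1 by 0.58 ± 0.11 and 0.70 ± 0.06, Tars1 by 0.59 ± 0.11 in females, and Sars1 by 0.66 ± 0.07 in males. In females Gars1 was no longer called without control replicate 1 or 3 or dehydrated replicate 1 or 2 (adjusted p up to 0.0656), and Tars1 without control replicate 3 or dehydrated replicate 1 or 2 (up to 0.0745).

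Of 24 other targets on the array, Fgf21, Gdf15 and Stc2 were below the filter on low values and were not tested. Of the 21 tested, 3 rose in females and none fell, while 11 rose and 2 fell in males. Mthfd2, a mitochondrial enzyme of folate metabolism, had the largest rise of those that passed in both sets (1.64 ± 0.25 in females, 1.10 ± 0.20 in males). Psph, the last enzyme of serine synthesis, rose by 0.79 ± 0.14 and 1.00 ± 0.10, and Slc7a1, a carrier of cationic amino acids, by 0.72 ± 0.10 and 0.78 ± 0.08. Slc7a5, a carrier of large neutral amino acids, rose in males (0.85 ± 0.07) and had 0.20 ± 0.13 in females (adjusted p = 0.431). Of those that fell in males, Slc7a11 is the cystine carrier (-0.66 ± 0.15, adjusted p = 0.00863) and Phgdh is the first enzyme of serine synthesis (-0.22 ± 0.07, adjusted p = 0.0403). In females they had -0.18 ± 0.12 and -0.29 ± 0.17. The Phgdh fall did not hold with array medians set equal (-0.15, adjusted p = 0.197), nor without any of dehydrated replicates 1, 2, 4 and 5 and control replicates 2 and 3 (adjusted p up to 0.103). With the meninges marker mean as a covariate, Slc7a11 in males was at -0.06 (adjusted p = 0.785) and Mthfd2 at 0.64 (adjusted p = 0.196).

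**Figure D4:**
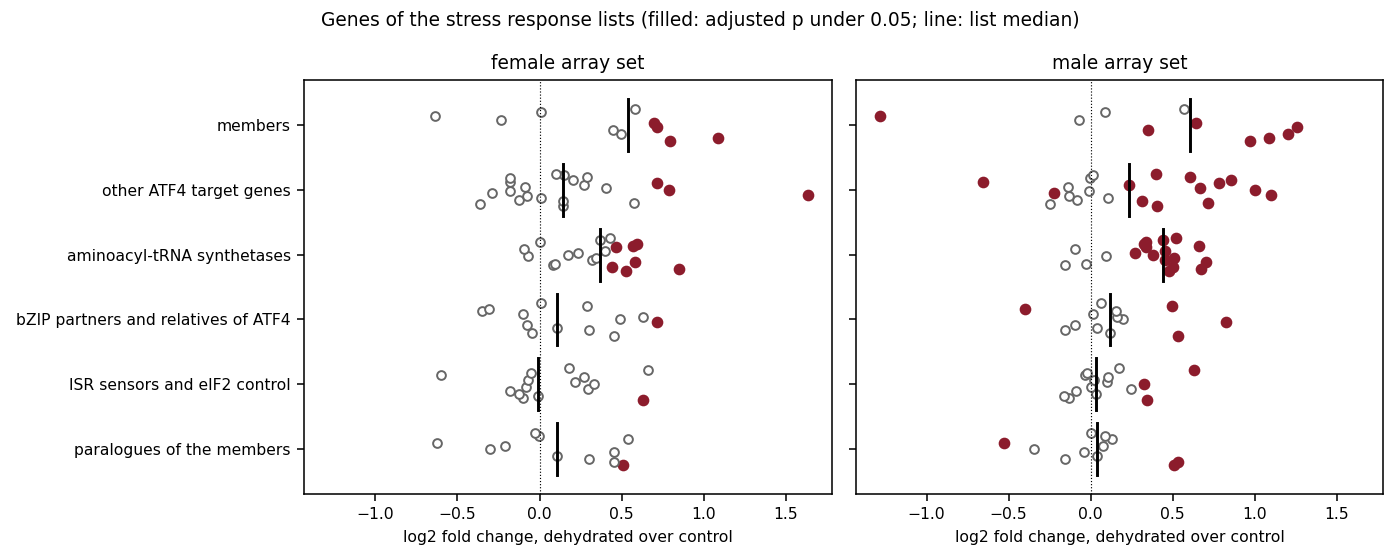
Log2 fold change, dehydrated over control, of each tested gene of the members and of the pathway lists, in females and males, 1 point per gene with the list median as a vertical line. Filled points passed the adjusted threshold of 0.05. The synthetases lie mostly to the right of 0 (medians 0.37 and 0.44), and the sensors are centred near 0 (-0.01 and 0.03).

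The genes whose profile was nearest to that of Atf4 were found over the 18 arrays, among 11032 genes, by the root mean square difference of log2 values after each was set to the mean of its own controls. They were Cthrc1 (0.18), Perp (0.19), Tent5a (0.20), Cpne7 (0.22) and Mc4r (0.22, the melanocortin 4 receptor). Their log2 fold changes ran from 0.97 to 1.30 in females and from 0.87 to 1.14 in males. For Nupr1 the nearest were Rbp4 (0.27), S100a6 (0.28), Cdkn1c (0.28), Col8a2 (0.29) and Rarres2 (0.31), with log2 fold changes of -0.93 to -0.46 in females and -1.27 to -0.94 in males. These genes were chosen for their likeness, so their changes are a description with no test.

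Between the sets, none of the 10 members passed the test of the difference between the dehydration effects, and 7 of all 21729 probe sets did (0.0322%). At an unadjusted limma p under 0.05 there were 2177 such probe sets, and 2 members, Chac1 and Cebpb. The median SE of this difference over all probe sets was 0.21, and that of the effects was 0.17 in females and 0.12 in males. Members that passed in males and not in females, Cebpb, Cebpg and Nupr1, are not shown to respond differently between the sets.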

How the data were processed

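RNA of the supraoptic nucleus was measured on 1-colour Affymetrix rat arrays. The authors deposited linear intensity values for each probe set, scaled to a 2% trimmed mean of about 100. The submitters' processing notes name GCOS 1.2 for males and MAS5 for females. Background settings are not given in the sources used here.

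Of 24 samples, 19 had values, and 18 entered the fits. No 2 arrays held identical values. Arrays were rescaled to a trimmed mean of 500 and taken as log2(value + 32), an offset of 6.4 on the deposited scale. The 57 control probe sets were dropped, and probe sets with a mean above the 30th percentile were tested, 21729 of 31042. Printed signals are on the deposited scale. All 10 members had a tested probe set, and 12 of their 14 probe sets were tested. A gene with several is represented by the brightest, and all are given. Symbols come from the platform annotation (20832 probe sets with 1 symbol, 436 with several, 9831 with none).

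Each set was fitted alone with limma 3.58.1 in R 4.3.3 (lmFit, eBayes with trend, Benjamini-Hochberg over all probe sets tested), and the difference between the sets in a fit of 4 group means. Intervals are 95% from the moderated fit. The code was tested on simulated data with normal noise. There the female fit called 8.3% of set changes of 0.5 in log2 and 62% of changes of 1. The male fit called 42.6% and 85.6%, so many changes near 0.5 would be missed, most of all in females. Alternatives were quantile and median scaling, offsets of 1 and 100, no filter and a 50th percentile filter, array weights, no trend, a shared fit, a marker covariate, the mean over probe sets, replicate 5 kept, and each array left out. The members, gene lists, comparisons and alternatives were chosen with earlier results of these data known. The rule for named genes was all members, up to 3 rises and 2 falls per list and set, and the 5 genes nearest to Atf4 and to Nupr1. Eif2ak1 to Eif2ak4, paralogues without a call, list genes below the filter, Aars1, Eprs1 and Rars1 are named outside that rule. So are female values of genes called in males. All of these were named after their values were seen. Promoters are from RefSeq (GRCr8). The number of arrays limits the precision.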

Additional observations from a re-analysis of the deposited data

Results flagged for a closer look

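Ddit4 was the member singled out by its spread within a group. In dehydrated females replicate 4 read 98.2 and the other 3 arrays read 107 each, so its gap to the nearest array was nearly the whole range of the group. All 4 values lie within the range of the female controls (70.0 to 169). Of 48 groups of arrays tested in this way, 1 was singled out, while chance alone gives about 1 in 20.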

How the results depend on the processing

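Female results were the less stable. The 642 probe sets called in females became 1704 with array weights, 2321 with all 4 groups in 1 fit, 290 without the trend, 6 with the meninges covariate and 1 with dehydrated replicate 5 kept, and 211 to 881 with single arrays left out. Members higher in females went from 4 to 0 with the covariate and to 0 with replicate 5 kept, rose to 6 with array weights and to 6 with all 4 groups in 1 fit (Cebpb and Cebpg added), and were 3 to 5 with single arrays left out (lower: 0 to 1). Ddit3 also missed the threshold with no filter (adjusted p = 0.0503) and without the trend (0.0827). Of the list genes, female Asnsd1 and Gars1 also missed it without the trend (0.0827 and 0.0596). In males 3844 probe sets became 2268 with all 4 groups in 1 fit and 823 with the covariate (2841 to 4147 with single arrays left out). Members higher stayed at 6 to 7 (Trib3 added) and lower at 1 with single arrays left out, and lower went to 0 with the covariate. For the difference between sets, 7 probe sets became 19 with quantile scaling, 12 with median centring, 11 with offset 100, 2 with no filter, 114 with array weights and 0 with replicate 5 kept (1 to 55 with single arrays left out). Members called were 1 (Chac1) with array weights and 0 in every fit with an array left out. Among signs that turned, only male Nupr1 (0.041 with the covariate) and female Asnsd1 had passed the test as reported. The cause was not tested for any of these.

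With the covariate, female Nupr1 turned to 0.15, Ddit4 to 0.40 and Sesn2 1391607_at to -0.88, male Ddit4 to 0.23, and the Trib3 difference to -0.099. With replicate 5 kept, female Cebpb turned to -0.024, Sesn2 1396901_at to 0.074 and Asnsd1 to -0.11, and the differences of Atf4 to -0.40, Ddit3 to -0.29, Cebpg 1372885_at to -0.0057, Ddit4 to 0.060 and Sesn2 1391607_at to 0.080. Median centring turned female Sesn2 1396901_at to 0.011, male Ddit4 to 0.0035, and the differences of Atf4 to -0.033 and Trib3 to -0.024. Quantile scaling turned female Sesn2 1396901_at to 0.00051 and the Atf4 difference to -0.022. Array weights turned female Sesn2 1391607_at to -0.033 and the Atf4 difference to -0.081, and offset 1 turned the Trib3 difference to -0.024. With the mean over probe sets Sesn2 was -0.012 in females, -0.23 in males and 0.22 for the difference. With single arrays left out, signs turned for the differences of Atf4 (-0.20 to 0.086), Ddit3 (-0.056 to 0.20), Sesn2 1391607_at (-0.29 to 0.054) and Trib3 (-0.15 to 0.13), for female Sesn2 1391607_at (-0.20 to 0.14) and 1396901_at (-0.18 to 0.075), and for male Ddit4 (-0.18 to 0.0075). No paired analysis was possible because the titles give no replicate numbers shared between groups. Signals near the floor limit Trib3 and the dimmer Sesn2 probe set. Of the list genes named for a call, none passed in females with the covariate or with replicate 5 kept. In males Asnsd1, Atf5, Dnajc3, Eif2b3, Mthfd2, Nfe2l2, Nfil3, Phgdh, Sesn1 and Slc7a11 missed the threshold with the covariate.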
